A study of Mus musculus with 6 samples.

Results

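Mitochondrial ribosomal proteins are encoded in the nucleus, made in the cytosol and imported into mitochondria, where they build the ribosome that translates the mRNAs of the mitochondrial genome. Those mRNAs encode core subunits of the respiratory chain and of ATP synthase. The small subunit (proteins named Mrps in the mouse) binds the mRNA and reads its codons, and the large subunit (Mrpl) joins the amino acids and holds the exit tunnel next to the inner membrane. Some of these proteins descend from bacterial ribosomal proteins, and others were added in the mitochondrial lineage.

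The genes described here are those whose symbol is Mrpl or Mrps followed by a number and, where present, a letter from a to c. The rule found 78 genes among the 14408 in the expression table, 49 Mrpl and 29 Mrps, and it used no measured value. All 78 genes of that naming pattern in the RefSeq annotation of GRCm38.p6 were present. Proteins of the mitochondrial ribosome with other kinds of symbol (Dap3, Aurkaip1, Chchd1, Ptcd3 and Gadd45gip1) are outside the rule and are given separately.

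The tissue is labelled left ventricle, from C57BL/6J males that entered the study at 8 weeks of age and were brought to HFpEF (heart failure in which the ejection fraction is preserved). For this, animals of both groups ate a high-fat diet for 8 to 12 weeks and took L-NAME, which blocks nitric oxide synthases, at 0.5 g/L. The L-proline group (3 libraries) was then injected intraperitoneally with L-proline at 300 mg/kg per day for 4 to 8 weeks, and the PBS group (3 libraries) with phosphate-buffered saline. No group without the diet and L-NAME is part of the comparison.

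Expression was given as FPKM (fragments scaled to the length of the gene model and to the library's total), and 34990473 to 37498030 fragments per library were recovered from these values. The markers of heart muscle were largely absent: of 13 cardiomyocyte markers 6 were listed, and Myh7, Tnni3, Ttn, Ryr2 and Myl2 lay below 0.25 FPKM in every library. Tnnt2, the remaining one, fell to 14.5 FPKM in L-proline libraries, against 32.0 in PBS libraries (means, n = 3 each). Summed fibroblast markers (8 of 11 listed) lay at 6438 to 6772 FPKM in L-proline libraries and 6177 to 6426 in PBS libraries, led by Vim, Col3a1 and Fn1. Within that sum Col1a1, Col1a2 and Col3a1 rose and Vim and Pdgfra fell, 5 of 8 tested. Summed pericyte and smooth muscle markers (9 of 9 listed) reached 905 to 1100 FPKM in L-proline libraries and 986 to 1102 in PBS libraries, with Acta2 the highest of them at means of 826 and 850 FPKM, while Myh11, Rgs5 and Vtn were each below 0.15. Macrophage markers (4 of 8 listed) summed to 21.8 to 25.4 FPKM in L-proline libraries and 19.7 to 22.2 in PBS libraries, and endothelial markers (5 of 8 listed) to 0.829 to 1.03 and 0.929 to 1.04 FPKM. Whether the mixture of cells bears on the values below was not tested, and in bulk RNA fewer cells of a type cannot be told apart from less RNA per cell.

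The 5 members that passed the test described below are shown first by the sequence upstream of their transcription start, since start regions of housekeeping and mitochondrial genes are known for matches to a few activators. The lines give the 130 bases before the start, 5′ to 3′ on the strand of the gene, from the RefSeq promoter table for GRCm38.p6. The regions are chr3:95871515-95871644 on the minus strand for Mrps21, chr5:100798629-100798758 on the plus strand for Mrps18c, chr16:92058206-92058335 on the plus strand for Mrps6, chr13:99344656-99344785 on the plus strand for Mrps27 and chr16:84735245-84735374 on the minus strand for Mrpl39. Capitals mark whole matches, on either strand, to the motifs spelled out after them.
Mrps21: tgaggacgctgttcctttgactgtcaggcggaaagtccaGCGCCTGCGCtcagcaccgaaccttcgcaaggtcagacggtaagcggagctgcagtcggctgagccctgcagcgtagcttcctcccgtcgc
Mrps18c: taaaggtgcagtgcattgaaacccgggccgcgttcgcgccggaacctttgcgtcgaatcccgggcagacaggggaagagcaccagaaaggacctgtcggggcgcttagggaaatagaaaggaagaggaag
Mrps6: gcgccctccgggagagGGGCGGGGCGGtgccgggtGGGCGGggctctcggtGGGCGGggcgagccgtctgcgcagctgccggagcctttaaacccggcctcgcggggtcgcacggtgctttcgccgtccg
Mrps27: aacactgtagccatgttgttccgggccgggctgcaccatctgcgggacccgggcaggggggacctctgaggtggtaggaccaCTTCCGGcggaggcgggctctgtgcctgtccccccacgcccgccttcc
Mrpl39: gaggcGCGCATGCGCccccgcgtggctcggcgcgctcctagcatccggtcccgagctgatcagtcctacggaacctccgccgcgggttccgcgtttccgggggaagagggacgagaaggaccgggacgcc

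The motifs searched were GCGCA, any base and GCGC in a row for NRF1, CCGGAAG for ETS factors, GGGCGG for SP1, AAGATGGCG for YY1, TGATGCAA for the CARE element bound by ATF4 and TATAAA for the TATA box, on both strands. A promoter could be counted for several motifs, and matches were allowed to overlap, as the first pair in Mrps6 does. The capitals in Mrps21 and Mrpl39 are NRF1 matches, those in Mrps6 are SP1 matches and those in Mrps27 are an ETS match read on the other strand. No match lay wholly inside the stretch shown for Mrps18c.

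Promoter entries of 300 bases (250 before and 50 after the start) were found for 69 of the 78 members, 75 entries in all. The ETS letters were in 34.7% of members' entries, against 8.86% of all 32851 entries and 18.7% of the entries of tested genes. NRF1 letters were in 17.3% of members' entries, 4.60% of all and 10.6% of those of tested genes, and YY1 letters in 10.7%, 1.40% and 3.32%. SP1 letters were in 52.0% of members' entries, against 35.7% of all and 65.2% of those of tested genes. The CARE letters were in 0 of the 75, against 0.895% of all entries and 0.517% of those of tested genes. At such low shares 0 of 75 does not set the members apart. The TATA letters were in 6.67%, against 13.6% of all and 6.85% of those of tested genes. These are matches of letters, and no binding was measured.

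Among the mitochondrial ribosomal protein genes, 2 rose with L-proline (Mrps21 and Mrps18c), 3 fell (Mrps6, Mrps27 and Mrpl39) and 73 did not pass the test. Each gene was tested with limma on log2(FPKM + 1), with p-values adjusted by the Benjamini-Hochberg method over 10500 genes with a mean of at least 1 FPKM and a threshold of 0.05. All 78 members passed that filter. Of all genes tested 19.6% of tested genes were called, 7.50% higher and 12.1% lower in L-proline libraries, and over the members 6.41% were called. At an unadjusted p under 0.05 there were 17 of 78 members (11 higher, 6 lower), against 35.1% of all tested genes (13.3% higher, 21.8% lower). The labels do not say that the libraries came from separate animals, so these p-values measure only the spread between libraries, which may be technical.

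The median log2 fold change (L-proline over PBS) was 0.04 over the members and -0.06 over all tested genes. Member values ran from -0.56 to 0.47, with 45 above 0 and 33 below. On the log2(FPKM + 1) scale the 95% interval lay within 1.5-fold of no change in either direction for 75 of the 78 members. The intervals of Mrps6, Mrps21 and Mrps16 reached past that bound, 0.585. Those of Mrps27, Mrpl57 and Mrpl16 ended just inside, at -0.57, 0.57 and 0.57. Adding 1 understates the fold changes of low genes, so fewer intervals may lie within 1.5-fold in FPKM itself. The groups did not overlap for 21 of the 78 members, against 40.1% of tested genes.

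**Figure D1:**
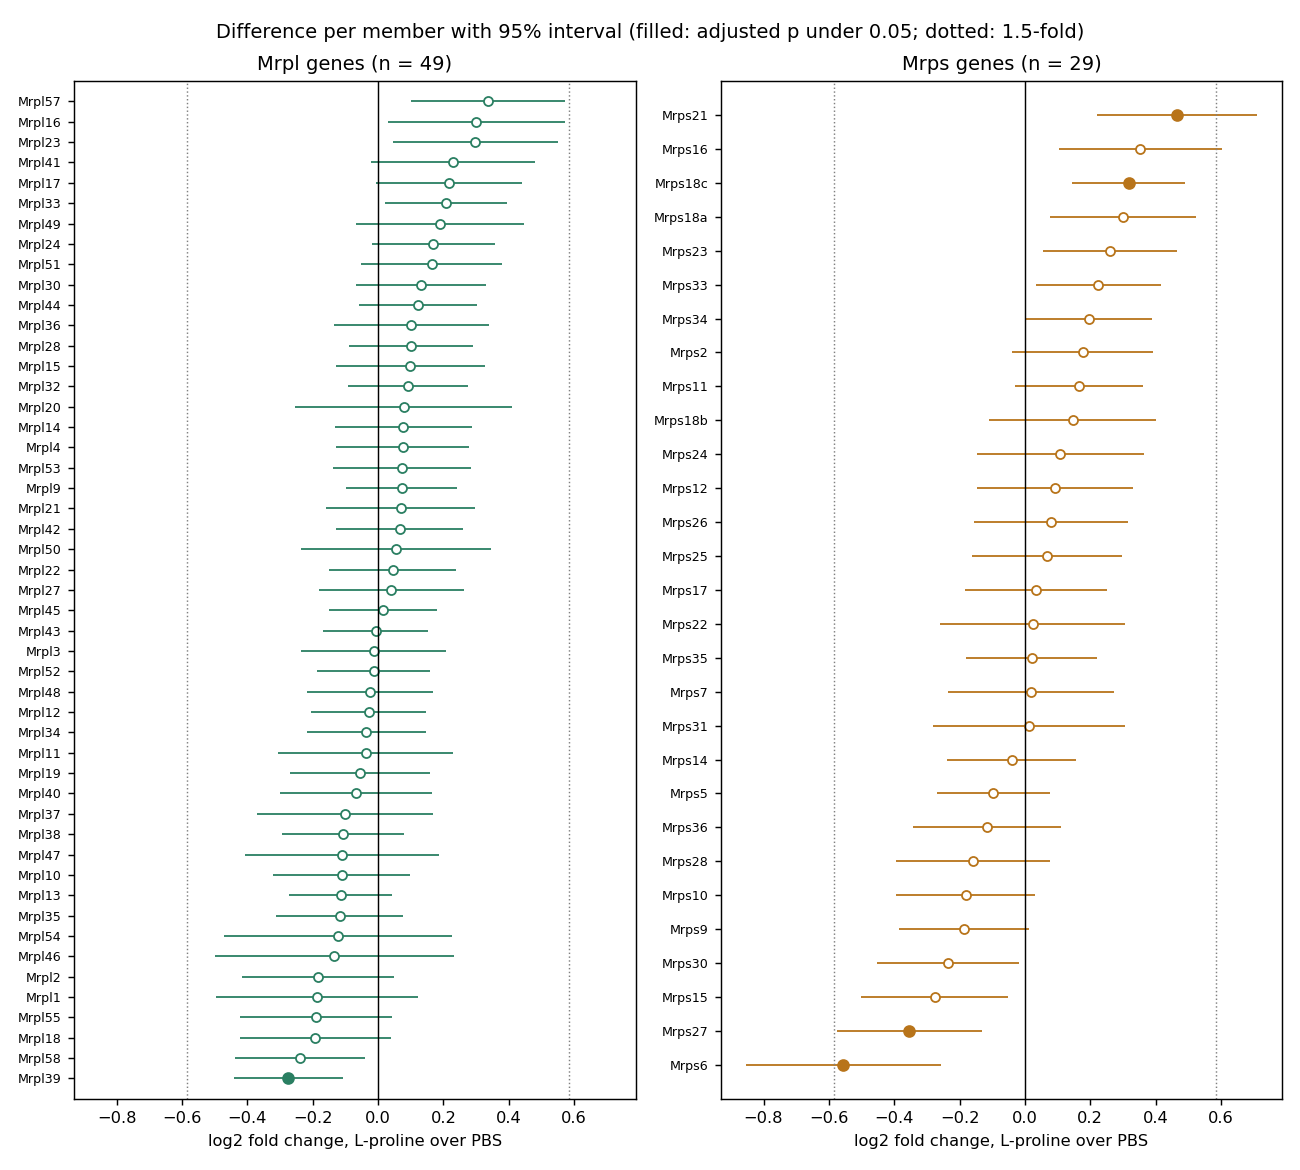
Log2 fold change (L-proline over PBS) of each of the 78 members with its 95% interval from limma on log2(FPKM + 1). Members of the large subunit and of the small subunit are drawn apart and ordered by value. Filled points mark adjusted p under 0.05, and dotted lines mark 1.5-fold on that scale. Most intervals cross 0, and the 5 members past the threshold are Mrps21 and Mrps18c above 0 and Mrps6, Mrps27 and Mrpl39 below it.

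Mrps21, the counterpart of bacterial ribosomal protein S21, had 103, 112 and 123 FPKM in L-proline libraries 1, 2 and 3, against 73.9, 93.1 and 76.8 FPKM in PBS libraries 1, 2 and 3. Every L-proline library lay above every PBS library, with means of 112 ± 10.3 and 81.3 ± 10.3 FPKM (SD, n = 3 each). Its log2 fold change was 0.47 ± 0.11 (SE; limma, adjusted p = 0.0198). It is the most abundant Mrps mRNA per length in these libraries. The call was lost when any of 4 libraries was left out (adjusted p = 0.0884 without PBS 3, 0.0820 without PBS 1, 0.0568 without L-proline 2 and 0.0524 without L-proline 3).

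Mrps18c is one of 3 mouse proteins related to bacterial ribosomal protein S18. It had 44.3, 44.1 and 41.4 FPKM in L-proline libraries and 33.6, 37.4 and 32.7 FPKM in PBS libraries, again without overlap. The means were 43.3 ± 1.60 and 34.6 ± 2.47 FPKM (SD, n = 3 each), and the log2 fold change was 0.32 ± 0.08 (SE; limma, adjusted p = 0.0234). Without PBS 3, PBS 1 or L-proline 2 the adjusted p was 0.119, 0.0993 and 0.0663. The related Mrps18a, which sits in the large subunit of the mammalian ribosome in spite of its name, averaged 32.3 ± 3.31 FPKM in L-proline libraries and 26.0 ± 2.03 in PBS libraries and did not pass (0.30 ± 0.10, adjusted p = 0.0638). Mrps18b averaged 12.6 ± 1.72 and 11.2 ± 0.887 FPKM (0.15 ± 0.11, adjusted p = 0.382).

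Mrps6, the counterpart of bacterial ribosomal protein S6, which in bacteria binds S18, had 21.9, 31.0 and 23.7 FPKM in L-proline libraries and 34.7, 41.0 and 37.3 FPKM in PBS libraries. All 3 L-proline values were below all 3 PBS values, with means of 25.6 ± 4.83 and 37.7 ± 3.17 FPKM (SD, n = 3 each). It had the lowest log2 fold change of the members, -0.56 ± 0.13 (SE; limma, adjusted p = 0.0215), and the call was lost without PBS 3 (adjusted p = 0.0768), PBS 2 (0.0632) or L-proline 3 (0.0602). Within each library the FPKM of Mrps18c divided by that of Mrps6 was 2.02, 1.42 and 1.75 in L-proline libraries and 0.968, 0.911 and 0.876 in PBS libraries. Exons of Mrps6 overlap Slc5a3, a myo-inositol transporter gene on the same strand, in the GENCODE M21 annotation, so fragments of the overlap are uncertain. Slc5a3 had 10.3, 4.67 and 4.79 FPKM in L-proline libraries and 6.11, 3.79 and 5.85 in PBS libraries, and its log2 fold change was 0.22 ± 0.27 (limma, adjusted p = 0.591).

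Mrps27, a pentatricopeptide repeat protein of the small subunit with no bacterial counterpart, had 7.98, 9.35 and 9.10 FPKM in L-proline libraries and 10.4, 12.5 and 11.7 FPKM in PBS libraries. The groups did not overlap, and the log2 fold change was -0.35 ± 0.10 (SE; limma, adjusted p = 0.0374). It was the least stable of the 5 calls: leaving out any single library gave an adjusted p of 0.0534 to 0.139. Mrpl39, a protein of the large subunit without a bacterial counterpart, had 11.7, 12.4 and 11.4 FPKM in L-proline libraries and 14.7, 14.9 and 14.1 FPKM in PBS libraries. It fell by 0.27 ± 0.07 on the log2 scale (SE; limma, adjusted p = 0.0338), the only called member of the large subunit, and was lost without L-proline 3 (adjusted p = 0.0703) or any PBS library (0.102 to 0.128).

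**Figure D2:**
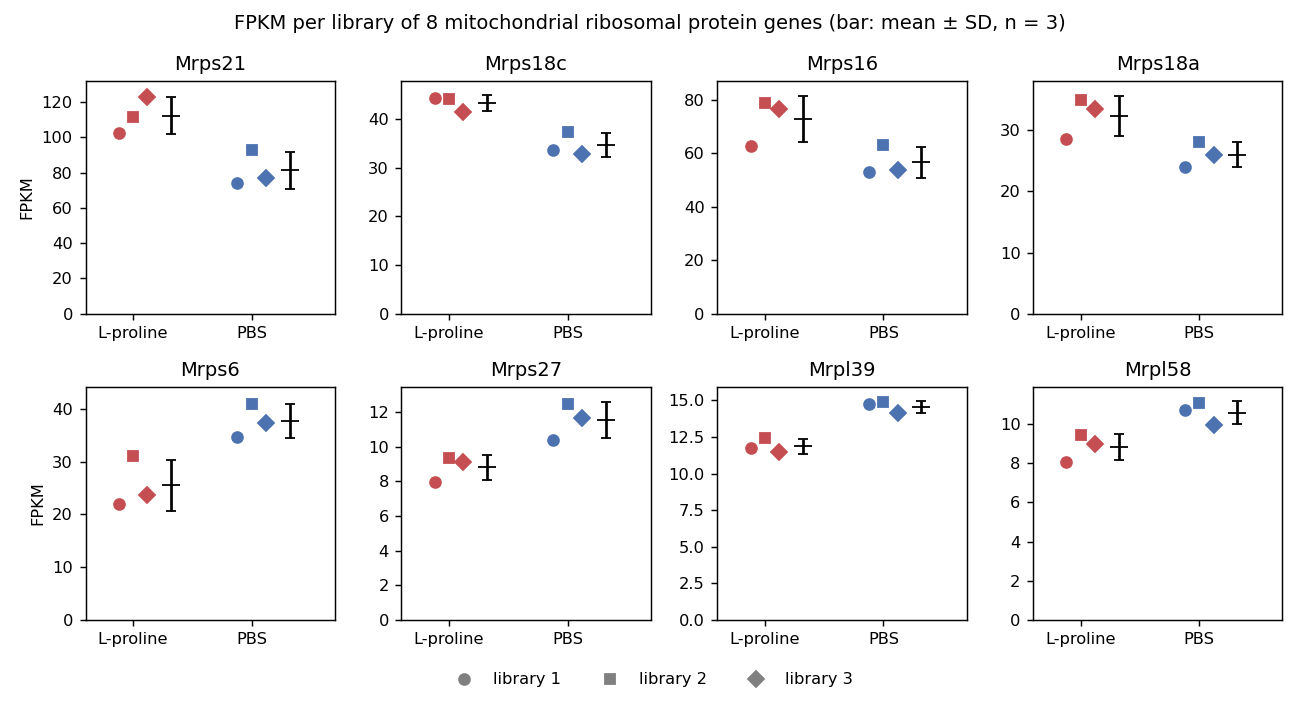
FPKM in each of the 6 libraries for the 5 members past the threshold and for Mrps16, Mrps18a and Mrpl58, L-proline libraries left of PBS libraries, with a bar for the mean ± SD (n = 3). Mrps21 and Mrps18c lie higher in every L-proline library, and Mrps6, Mrps27 and Mrpl39 lower.

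The members nearest to the threshold on its other side were Mrpl57, a large-subunit protein, at 0.34 ± 0.10 (limma, adjusted p = 0.0542) and Mrps16 at 0.35 ± 0.11 (adjusted p = 0.0543). Mrps16, mutated in a human mitochondrial disease, had 62.9, 78.7 and 76.8 FPKM in L-proline libraries and 53.0, 63.3 and 53.7 FPKM in PBS libraries, so L-proline 1 lay just under PBS 2. Mrpl58, a peptidyl-tRNA hydrolase built into the large subunit that frees stalled chains, had 8.09, 9.42 and 8.96 FPKM in L-proline libraries and 10.7, 11.1 and 9.95 FPKM in PBS libraries. Those groups did not overlap, but its log2 fold change of -0.24 ± 0.09 did not pass (limma, adjusted p = 0.0884).

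Of the 49 Mrpl genes 0 rose and 1 fell (2.04% called), and of the 29 Mrps genes 2 rose and 2 fell (13.8% called), both below the 19.6% of all tested genes. The median log2 fold change was 0.04 for Mrpl and 0.03 for Mrps. The Mrps values were more spread, from -0.56 to 0.47, against -0.27 to 0.34 for Mrpl. The median size of the log2 fold change, without its sign, was 0.17 for Mrps and 0.10 for Mrpl, against 0.17 for all tested genes. At an unadjusted p under 0.05 there were 11 of 29 Mrps genes (7 higher, 4 lower) and 6 of 49 Mrpl genes (4 higher, 2 lower). Of all tested genes 35.1% were under that bound (13.3% higher, 21.8% lower). On the log2(FPKM + 1) scale the interval lay within 1.5-fold for 49 of 49 Mrpl genes and 26 of 29 Mrps genes. Whether the subunits differ in spread was not tested, because genes of a subunit are not replicates.

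Symbols do not match the structure for 3 members: the proteins of Mrps18a and Mrps30 belong to the large subunit, and that of Mrps36 is a component of the 2-oxoglutarate dehydrogenase complex. Placed by structure, the large subunit had 0 genes that rose and 1 that fell of 51, and the small subunit 2 and 2 of 26. That is 1.96% and 15.4% called, against 19.6% of all tested genes. Of the 30 large-subunit genes with a bacterial counterpart none passed (limma; 3 at an unadjusted p under 0.05, all higher), and of the 21 without one 1 fell. In the small subunit 2 rose and 1 fell of the 16 with a counterpart, and 1 fell of the 10 without. The shares called with and without a counterpart were 0% and 4.76% in the large subunit and 18.8% and 10% in the small. Each lies below the 19.6% of all tested genes. Of the 3 genes related to bacterial S18 only Mrps18c was counted as having a counterpart. Mrps18a (large subunit) and Mrps18b (small subunit) were counted among those without, so these splits depend on that choice.

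**Figure D3:**
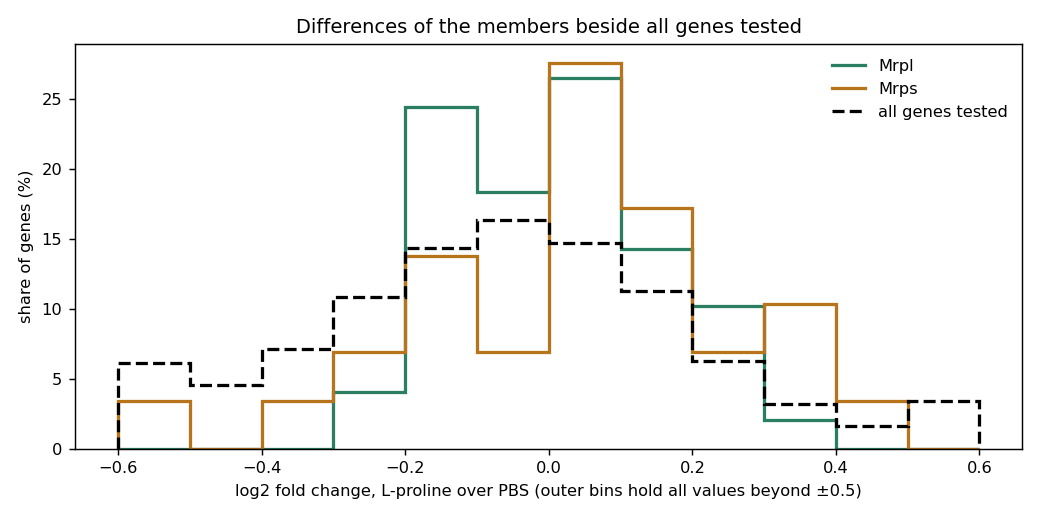
Share (%) of genes in each bin of log2 fold change (L-proline over PBS), for the 49 Mrpl genes, the 29 Mrps genes and the 10500 tested genes, the end bins holding all values beyond them. Mrpl genes lie between -0.27 and 0.34, Mrps genes between -0.56 and 0.47, and all tested genes reach -2.29 and 2.98.

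Summed over members, the large subunit came to 1365, 1488 and 1452 FPKM in L-proline libraries and 1354, 1475 and 1352 FPKM in PBS libraries. The small subunit came to 663, 771 and 749 FPKM in L-proline libraries and 634, 733 and 650 FPKM in PBS libraries. Both sums overlapped between the groups, with means of 1435 ± 63.2 and 1394 ± 70.5 FPKM for Mrpl and 727 ± 57.0 and 673 ± 53.2 FPKM for Mrps (L-proline and PBS; SD, n = 3 each). The Mrpl sum divided by the Mrps sum was 2.06, 1.93 and 1.94 in L-proline libraries and 2.13, 2.01 and 2.08 in PBS libraries, where L-proline 1 lay above PBS 2. All members together made up 0.506%, 0.542% and 0.539% of the summed FPKM in L-proline libraries and 0.510%, 0.543% and 0.513% in PBS libraries.

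**Figure D4:**
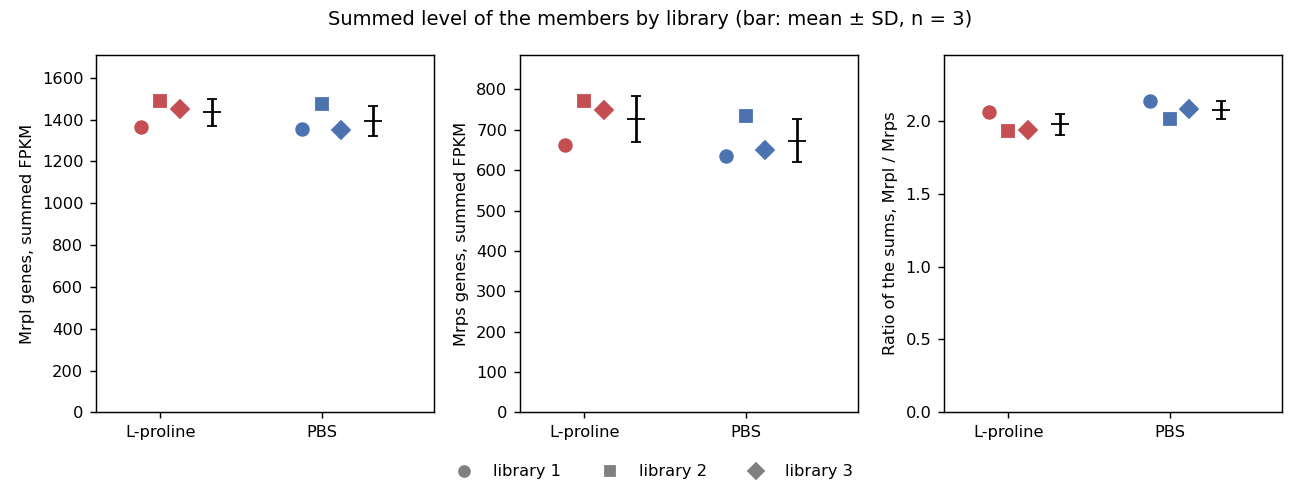
Summed FPKM of the 49 Mrpl genes and of the 29 Mrps genes in each library, and the first divided by the second, with a bar for the mean ± SD (n = 3) and L-proline libraries left of PBS libraries. Library 2 is highest in each group for both sums, and the groups overlap in all 3 panels.

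Members shifted together from library to library. The second L-proline library held the highest value of its group for 54 of the 78 members, and the second PBS library for 68 of 78. Over all tested genes those libraries were the highest of their group for 34.0% and 41.4%. The median deviation of members from their group mean (log2 scale) was -0.10, 0.09 and 0.02 in L-proline libraries 1, 2 and 3 and -0.05, 0.09 and -0.04 in PBS libraries. For all tested genes those medians stayed between -0.02 and 0.02. The shift was not particular to the members. For nuclear subunits of the respiratory chain and ATP synthase the medians were -0.11, 0.05 and 0.06 in L-proline libraries and -0.05, 0.09 and -0.03 in PBS libraries. For cytosolic ribosomal protein genes they were -0.07, 0.003 and 0.08 in L-proline libraries and -0.01, 0.08 and -0.07 in PBS libraries. The median difference between groups over the members, 0.038, was smaller in size than the members' shifts in L-proline 1, L-proline 2 and all PBS libraries (PBS 3 at -0.043).

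The genes outside the members whose pattern was most like the mean of the members were Grwd1, Psmb4, Pex19, Mybbp1a and Fbxo46. Their Pearson correlations with the members' mean log2(FPKM + 1) over the 6 libraries ran from 0.9900 to 0.9975, a description of the closest of many genes. None of those genes passed the test, which follows from picking genes that track a mean with little difference between the groups.

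Levels spanned 73.0-fold between members in mean FPKM and 10.6-fold in mean fragments. Mrpl33 was the highest at 208 ± 20.7 FPKM in L-proline libraries and 180 ± 4.07 in PBS libraries, followed by Mrpl13 and Mrpl52 with 118 and 108 FPKM over all 6 libraries. The highest Mrps genes were Mrps21 at 96.8, Mrps16 at 64.7 and Mrps34 at 40.9 FPKM. The lowest were Mrpl48, Mrpl1 and Mrpl35 at 2.66, 2.83 and 2.94 FPKM and Mrps25, Mrps35 and Mrps10 at 3.27, 4.03 and 6.80 FPKM. None of these highest and lowest members except Mrps21 passed the test. The median was 16.6 FPKM for Mrpl and 19.5 FPKM for Mrps.

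The FPKM of the members followed the length of the gene model. Spearman's rho over the 78 members was -0.788 between mean FPKM and model length and 0.00742 between mean fragments and model length, a description over genes that share the same 6 libraries and the same length division. The 22 members with models under 1 kb had a median of 36.7 FPKM and 952 fragments. The 11 with models over 4000 bp had a median of 4.23 FPKM and 1123 fragments, and none exceeded 8.38 FPKM. Model lengths ran from 412 to 8707 bp, so the order of levels between members depends on the models used.

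**Figure D5:**
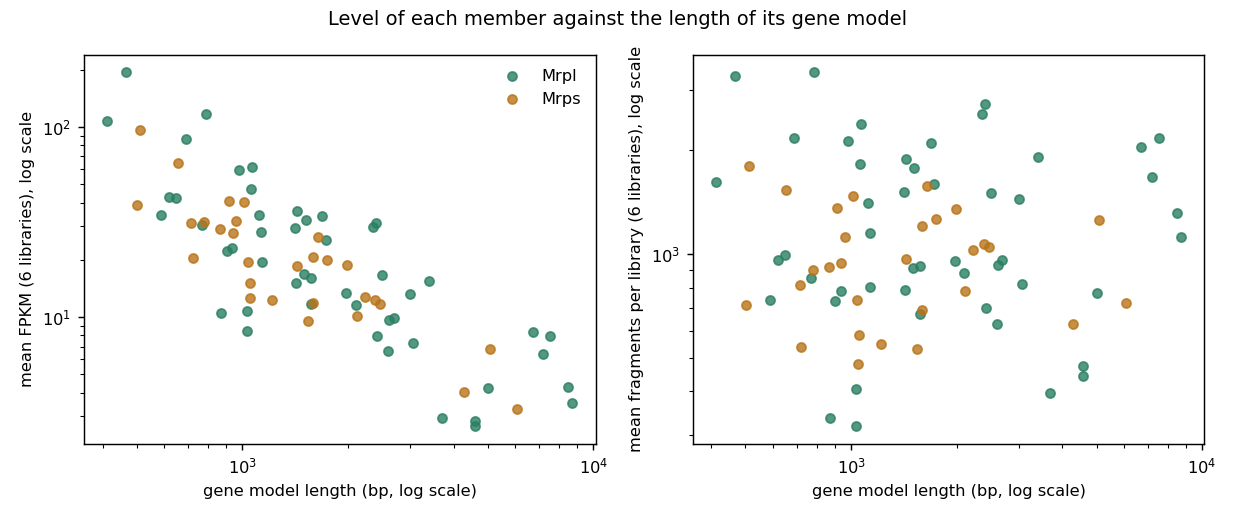
Mean FPKM (left, log axis) and mean fragments per library (right, log axis) of the 78 members against gene model length in bp (log axis). FPKM falls with length, from a median of 36.7 under 1 kb to 4.23 over 4000 bp, while fragments do not.

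Each member had between 264 and 3945 fragments in every library. In the GENCODE M21 annotation the exons of 23 members overlap another protein-coding gene, on the same strand for Mrps6, Mrpl53, Mrps24 and Mrps34. The sources used here do not say whether counting used the strand, so fragments of all 23 are uncertain.

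Mrps2, Mrps16, Mrps22 and Mrps34, 4 of the members tied to human mitochondrial disease, did not pass and had log2 fold changes of 0.18, 0.35, 0.02 and 0.20 (limma, adjusted p = 0.216, 0.0543, 0.908 and 0.140). Mrpl44, whose loss in humans causes hypertrophic cardiomyopathy, had 15.6, 17.1 and 14.8 FPKM in L-proline libraries and 14.2, 14.5 and 14.7 FPKM in PBS libraries. Each L-proline value was above each PBS value, and its log2 fold change was 0.12 ± 0.08 (adjusted p = 0.300). Mrpl12, which also binds the mitochondrial RNA polymerase, averaged 58.9 ± 3.57 FPKM in L-proline libraries and 60.2 ± 3.75 in PBS libraries (-0.03 ± 0.08, adjusted p = 0.814). Mrps12, at the decoding centre, Mrpl41 and Mrps36 had log2 fold changes of 0.09, 0.23 and -0.12 (adjusted p = 0.559, 0.175 and 0.433).

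Around the members, the 5 mitochondrial ribosomal proteins with other symbols included 1 that rose, Chchd1, of the small subunit, at 76.3 ± 6.78 FPKM in L-proline libraries and 62.3 ± 0.717 in PBS libraries (0.28 ± 0.08; limma, adjusted p = 0.0396). Of 26 ribosome assembly factors 1 rose (3.85% called), the GTPase Mtg2 (0.37 ± 0.09, adjusted p = 0.0272), and the list's median was 0.01. Of 16 tested translation factors 1 rose (6.25% called), Gfm2, which acts in ribosome recycling (0.33 ± 0.08, adjusted p = 0.0303), with a median of 0.03. Of 19 tested aminoacyl-tRNA synthetases and related enzymes that serve mitochondria 3 rose and 1 fell (21.1% called, against 19.6% of all tested genes). Gars, Gatb and Yars2 rose by 0.53, 0.39 and 0.36 and Sars2 fell by 0.32 on the log2 scale (limma, adjusted p = 0.00304, 0.0266, 0.0282 and 0.0319). Gars and Kars, both on that list, are not solely mitochondrial.

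For the mRNAs that the mitochondrial ribosome translates, 3 of 13 rose and 0 fell (23.1% called, against 19.6% of all tested genes). The share of all tested genes that rose was 7.50%. ND1 averaged 4637 ± 1200 FPKM in L-proline libraries and 2275 ± 181 in PBS libraries, ND2 3093 ± 982 and 1210 ± 123, and ND3 18.9 ± 5.89 and 5.85 ± 2.51 (limma, adjusted p = 0.00840, 0.00590 and 0.010). The other 10, including CYTB at 1991 ± 550 FPKM in L-proline libraries and 2110 ± 120 in PBS libraries, did not pass. These RNAs were measured after selection of polyadenylated RNA, and how that bears on them was not tested. Of 22 tested genes for the upkeep and transcription of mitochondrial DNA 2 rose and 1 fell (13.6% called, below the 19.6% of all tested genes). Polg2 (the accessory subunit of the polymerase of that DNA) and Pnpt1 (an RNA-degrading exonuclease) rose by 0.64 and 0.68 on the log2 scale (limma, adjusted p = 0.00250 and 0.0112). Grsf1, an RNA-binding protein of mitochondrial RNA granules, fell by 0.31 (limma, adjusted p = 0.0298). Of 8 tested regulators of mitochondrial biogenesis 0 rose and 1 fell (12.5% called, also below that share), Myc, at -0.31 (limma, adjusted p = 0.0212). The share of all tested genes that fell was 12.1%.

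Of the cytosolic ribosomal protein genes 19 of 77 rose and 0 fell (24.7% called, against 19.6% of all tested genes), with a median log2 fold change of 0.19. The share of all tested genes that rose was 7.50%. Whether they differ from the mitochondrial ribosomal protein genes in this was not tested. Another list held Atf4, the transcription factor of the integrated stress response, together with its targets. Of its 15 tested genes 12 rose, Atf4 itself among them, and 0 fell (80% called, against 19.6% of all tested genes, 7.50% rising). The median of that list was 0.92.

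The balance of calls depended on how libraries were scaled. Under median-of-ratios scaling the members called were 7 higher and 1 lower, against 9.46% of all tested genes higher and 8.75% lower. Of all calls 51.9% were then higher, against 38.3% under the authors' scaling. Quantile normalization also gave 7 higher and 1 lower, against 10.3% and 9.67% of all tested genes, with 51.5% of all calls higher. Under these scalings Mrpl39 was at an adjusted p of 0.0851 and 0.0678 and Mrps27 at 0.0747 and 0.0949 (limma). Without the filter Mrps27 was at 0.0539, and with voom Mrps18c was at 0.0517. When libraries were scaled to equal summed FPKM of the members, an alternative chosen after seeing the data, 4 were higher and 8 lower. Of all tested genes 5.68% were then higher and 15.3% lower, with 27.1% of all calls higher. Relative to the median of all genes, the members' median was 0.09 to 0.10 higher under all 3 of these scalings. Median-of-ratios scaling and equal member sums could hardly change this offset, since a constant per library shifts members and other genes nearly alike. The offset was 0.06 without the filter or without L-proline 3, and above 0.10 without PBS 2. Without PBS 3 no member passed (limma; 11 members at an unadjusted p under 0.05, 4 higher and 7 lower), and without PBS 1 Mrps6 alone did, while calls over the whole table dropped to 874 and 976 genes, against 2056 with all libraries.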

How the data were processed

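The authors deposited 1 table of FPKM values for 14408 gene symbols and 6 libraries, already scaled to library total and gene model length. HISAT2, HTSeq 0.13.5 and GRCm39 are listed, without roles or order, per the submitters' processing notes. Polyadenylated RNA (1.5 µg) from about 30 mg of tissue was sequenced in pairs, per the labels' protocols. Groups and replicate numbers come from sample titles.

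FPKM values were whole multiples of 1 fragment: library totals were solved from 13 mitochondrially encoded genes with GENCODE M21 lengths, giving whole fragments (within 0.01) for 14404 genes. limma 3.58.1 in R 4.3.3 was fitted to log2(FPKM + 1) over 10500 genes with mean FPKM of at least 1 (trended empirical Bayes, two-sided, Benjamini-Hochberg, threshold 0.05). On that scale, fold changes of low genes are understated. Errors are SD over 3 libraries or the SE of the log2 fold change. The script was tested on simulated data.

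The members and lists were chosen with earlier results of these data known. Structural placement of members was added after values were seen. Named genes are members past the threshold, the 3 highest and 3 lowest in each subunit, members chosen by role, up to 4 genes per other list by unadjusted p, the mitochondrial mRNAs and the 5 most similar genes. Other members named, including those next to the threshold, were chosen after their values were seen, as were cytosolic ribosomal and marker genes named for their levels, and Lars2. Alternatives covered pseudocount, filter, scaling, voom on recovered fragments, a robust variance model, a replicate block and leaving out each library.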

Additional observations from a re-analysis of the deposited data

How the results depend on the processing

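The 5 called members kept their sign under all 16 other settings. Leaving out 1 library could not have changed it, since the groups did not overlap for these members. Nor could the filter, the robust variance model or the replicate block, which leave the fold change as it was. Mrps6 passed in 14 of 17 settings, Mrps21 and Mrps18c in 13, Mrpl39 in 11 and Mrps27 in 8, while Mrps16, which did not pass in the reported fit, passed in 8. The members' median, 0.038 in the reported fit, moved by less than the spread between libraries in every setting, but its sign changed: it was -0.0051 with equal FPKM sums, -0.022 with equal member sums and -0.00012 without L-proline 2, against 0.094 under median-of-ratios scaling. Leaving out 1 library gave 0 to 7 members higher and 0 to 2 lower (Mrpl 0 to 3 higher and 0 to 1 lower, Mrps 0 to 5 and 0 to 1), and 874 to 2770 genes called over the whole table.

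Without a filter 1 Mrps gene was lower. With mean FPKM of at least 5, 70 members were tested and 4 were higher, 1 of them Mrpl. With voom 1 member, an Mrps gene, was higher. Under median-of-ratios scaling and under quantile normalization alike 7 were higher (1 Mrpl, 6 Mrps) and 1 lower (0 Mrpl, 1 Mrps). With equal FPKM sums 6 were lower (2 Mrpl, 4 Mrps), and 16.1% of all tested genes were lower. With equal summed FPKM of the members, an alternative added after seeing the data, 4 were higher (4 Mrps) and 8 lower (3 Mrpl, 5 Mrps). The causes were not tested.

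Whether the replicate numbers pair the libraries cannot be told from these values, since deviations within a group of 3 libraries sum to 0. Deviations from group means correlated at 0.651 for number 1, 0.416 for number 2 and -0.348 for number 3, and L-proline 3 correlated best with PBS 2 (0.525). With the replicate block 6 members were higher (1 Mrpl, 5 Mrps) and 4 lower (12.8% called, against 22.7% of all tested genes). The members' median SE was then 0.077, against 0.095 in the reported fit, and 2383 genes were called over the whole table, against 2056.

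Of the 26 members taken by the naming rule, 6, none of them called, changed sign in some setting. With median-of-ratios scaling Mrpl12 was at 0.032, Mrpl48 at 0.021 and Mrpl52 at 0.048; with quantile normalization Mrpl48 was at 0.084 and Mrpl52 at 0.0056. With equal FPKM sums Mrps22 and Mrps35 were at -0.020 and -0.016, and with equal member sums at -0.037 and -0.031. Leaving out 1 library gave -0.076 to 0.017 for Mrpl12, -0.057 to 0.0015 for Mrpl48, -0.075 to 0.038 for Mrpl52, -0.068 to 0.167 for Mrps22, -0.0011 to 0.123 for Mrps25 and -0.021 to 0.068 for Mrps35.

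With 3 libraries a group, the median SE of 0.095 over the members on the log2 scale limits how small a change can be resolved. On the log2(FPKM + 1) scale 3 of 78 intervals reach past 1.5-fold.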

Other observations

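Other groups of nuclear genes for mitochondrial proteins are described here by counts. Of 35 tested genes for protein import and quality control in mitochondria, 6 rose and 1 fell, with a median log2 fold change of 0.09. That is 20% called, near the 19.6% of all tested genes. Hspe1 and Hspa9, chaperones of the matrix, averaged 259 ± 12.9 and 228 ± 11.7 FPKM in L-proline libraries and 172 ± 2.48 and 152 ± 6.58 FPKM in PBS libraries (SD, n = 3 each; limma, adjusted p = 0.000971 and 0.00141). Tomm34, a cochaperone of import, fell to 8.30 ± 0.215 FPKM in L-proline libraries, against 12.5 ± 0.195 in PBS libraries (adjusted p = 0.00213).

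Of 73 nuclear subunits of the respiratory chain and ATP synthase, 7 rose and 3 fell (13.7% called, below the 19.6% of all tested genes), with a median of 0.09. Ndufb10 and Ndufs5, subunits of complex I, averaged 149 ± 11.0 and 102 ± 7.73 FPKM in L-proline libraries and 114 ± 6.92 and 79.5 ± 4.95 FPKM in PBS libraries (limma, adjusted p = 0.0144 and 0.0188). Sdhd, a membrane anchor of complex II, fell to 60.5 ± 4.05 FPKM in L-proline libraries, against 76.0 ± 3.45 in PBS libraries (adjusted p = 0.0207).

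Lars2, the mitochondrial leucyl-tRNA synthetase, stood at 605 FPKM in L-proline 3, against 31.7 to 53.2 FPKM in the other 5 libraries. It did not pass the test, and it is named here because of these values.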
